A study of Bos taurus with 2 samples.

Results

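Glycosyltransferases of the Golgi that build the sugar chains of mucins, milk glycoproteins, gangliosides and milk oligosaccharides were examined in mammary tissue of Chinese Holstein cows. The genes were chosen by name. They were all those whose symbol in the files, or whose current symbol through the accession in the files, begins with GALNT, GCNT, ST3GAL, ST6GAL, ST8SIA, FUT, B3GNT, B3GALT or B4GALT, with B4GALT1 left out. This gave 131 probes of 72 genes among 17375 named genes on the array. Choice by name brings in genes of other function. Among them are the gene named B3GNT1 in the files, now B4GAT1, a glucuronyltransferase that acts on dystroglycan, and B4GALT7, which acts on the proteoglycan linker.

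The data were 1 array labelled mastitis and 1 array labelled normal, both of mammary gland taken in late lactation. The study design gives 3 cows with mastitis and 3 without, and the sources used here do not name the cow behind either array. By the study's methods, the cows with mastitis had been given antibiotics and the healthy cows had not, none had been injected with recombinant bovine somatotropin, all were on a total mixed ration and the tissue was collected after slaughter. Disease and antibiotic treatment therefore cannot be told apart, and with 1 array per condition no difference given here has a replicate check or a test.

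A mucin-type chain starts when a GALNT enzyme places N-acetylgalactosamine on a serine or threonine. The chain is then lengthened and branched by galactosyltransferases and N-acetylglucosaminyltransferases, and is capped with sialic acid or fucose. Each enzyme draws on a nucleotide sugar that is made in the cytosol or nucleus and carried into the Golgi by a transporter. In the lactating gland the same machinery decorates the mucins of the milk fat globule membrane, makes the gangliosides of milk and caps lactose to give sialyllactose and fucosylated oligosaccharides. B4GALT1 joins alpha-lactalbumin to form lactose synthase.

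Each probe gave a net signal, the brightness of its spot above the array's background. A probe counted as measured where it exceeded the negative control spots by more than 2.6 SD and its spot was not marked as missing. The threshold corresponded to a net signal of 7.10 on the mastitis and 8.74 on the normal array. Such signals were found for 85 of the 131 glycosyltransferase probes on the mastitis array (64.9%) and for 80 on the normal array (61.1%), and none was saturated. Net signals were divided by the 75th percentile of their array (210 for mastitis, 128 for normal) before a ratio was taken, so equal scaled signals correspond to a higher net signal on the mastitis array. A ratio is the log2 of the mastitis over the normal scaled signal, averaged over the measured probes of a gene. In bulk tissue fewer cells of a type and less RNA per cell cannot be told apart.

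Of the 72 genes, 47 (65.3%) were measured on both arrays, from 76 probes, against 71.8% of all named genes. A further 5 were above background on 1 array alone and 20 on neither. The signals were mostly low, with a median net signal of 49.5 on the mastitis and 25 on the normal array over the 76 probes, and 12 of the 47 genes had no probe that reached a net signal of 20 on the normal array. The ratio rested on 1 probe for 28 genes and on several for 19, with a pooled SD over probes of 0.46 on the log2 scale. This SD is a spread between probes of a gene, of untested source, and not a spread between cows.

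Few glycosyltransferases differed between the arrays. GALNT15 and B3GNT9 were higher with mastitis by 2-fold or more, that is 2 of 47 (4.26%), where 2.29% of all 12472 measured genes were higher. At least 2-fold lower were FUT6, FUT1 and ST6GAL1, that is 3 of 47 (6.38%), where 9.12% of all measured genes were lower. Counts of 2 and 3 genes lie near these background shares and say nothing of the enzymes as a set. The same shares are the background for the counts of genes measured on both arrays that are given below for each family and list. The other 42 genes lay within 2-fold. The median ratio of the 47 genes was 0.14, while that of all measured genes was -0.15, and 30 of the 47 (63.8%) lay above the median of all genes. The sign of the members' median was not stable, with -0.21 when no filter on dim probes was set, -0.09 with normexp and 0.86 with no scaling. The members' median lay above the median of all genes in each of the 18 other processings that were tried, by 0.097 to 0.48. Processings that differ only in a single scaling factor (the median, spike-in probes, probes measured on both arrays, or no scaling) move all genes alike. They could not change such a difference, here or for the families and lists below. Including the 4 genes with a lower bound of the fold from 1 array, the median was 0.13.

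**Figure D1:**
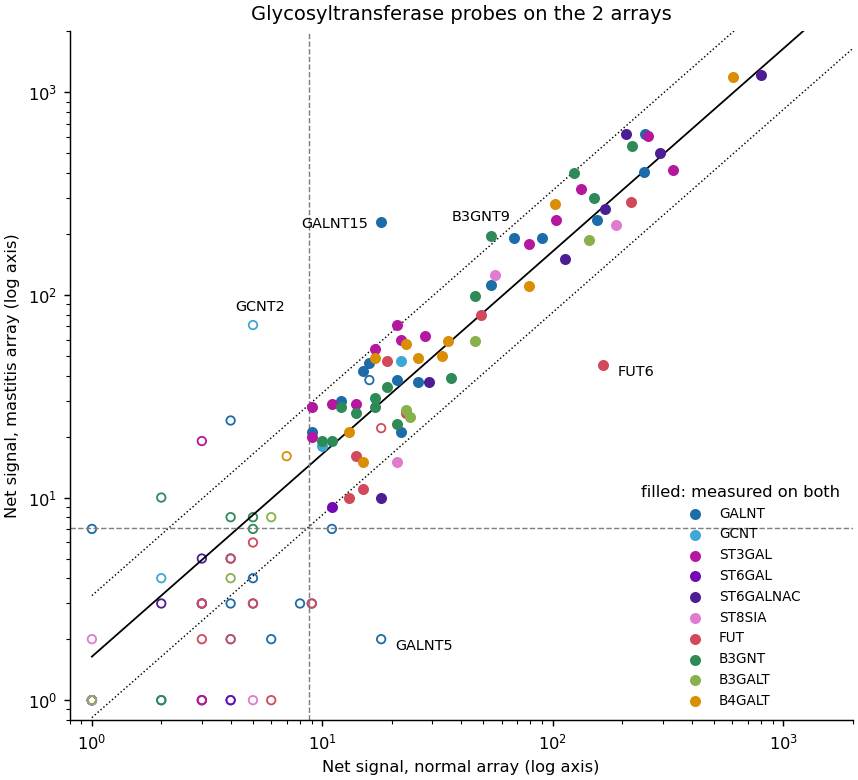
Net signal of each glycosyltransferase probe on the normal array (x axis) and the mastitis array (y axis), both on log axes, coloured by gene family, with filled points measured on both arrays, open points not, and signals below 1 drawn at 1. The solid line marks equal scaled signals and the dotted lines a 2-fold difference, and the dashed lines mark the background thresholds. Most filled points lie between the dotted lines. GALNT15, B3GNT9 and a probe of ST3GAL6 lie above them. FUT6, FUT1, ST6GAL1 and a probe each of ST6GALNAC6, ST8SIA1 and FUT8 lie below.

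The initiating enzymes of the GALNT family came first in the chain and had 20 genes on the array, of which 12 were measured. Their median ratio was 0.39, with 1 gene at least 2-fold higher and none lower, and 10 of the 12 lay above the median of all genes. The median of the family lay above that of all genes in each of the 18 other processings, by 0.14 to 0.75.

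GALNT15, named GALNTL2 in the files, had the highest ratio of all 47 genes. Its measured probe had a net signal of 228 on the mastitis and 18 on the normal array (scaled signals of 1.09 and 0.141), a ratio of 2.95 or 7.72-fold higher. A second GALNT15 probe had 24 and 4, and the latter was not well above background. Both probes thus pointed the same way, and the ratio itself rests on 1 probe with a dim signal on the normal array. Its size depended on the processing, with ratios from 1.41 with normexp background correction, which models the background in place of subtracting it, to 3.66 with no scaling.

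At the other end of the family, GALNT10 had net signals of 21 on the mastitis and 22 on the normal array, a ratio of -0.78. GALNT16 had 2 measured probes, with net signals of 623 and 252 at one and 191 and 68 at the other, and a ratio of 0.68 (SD 0.13 over probes). The ratios of the 11 members other than GALNT15 ran from -0.78 to 0.81. GALNT1 and GALNT11 had net signals of 235 and 404 on the mastitis and 155 and 249 on the normal array, and their ratios of -0.11 and -0.02 were close to the median of all genes. GALNT12 and GALNT6 had ratios of 0.81 and 0.77 from net signals of 46 and 42 on the mastitis and 16 and 15 on the normal array.

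GALNT5 and GALNT13 were above background on the normal array alone. GALNT5 had a net signal of 18 there and 2 on the mastitis array, which corresponds to at least 3.69-fold lower. GALNT13 had 11 on the normal and 7 on the mastitis array, at least 2.26-fold lower. These bounds set the bright signal against the lowest signal taken as measured on the other array, or against the dim signal itself where that was higher. With them, the family held 1 gene that was at least 2-fold higher and 2 that were at least 2-fold lower. The shares of 2.29% and 9.12% cover only genes measured on both arrays, so they give no background for this count. For GALNT13 the bound rests on signals close to the thresholds of 7.10 (mastitis) and 8.74 (normal). The other probe of that gene gave 1 with mastitis and 0 in the normal tissue, and was well above background on neither array. GALNT2, GALNT8, GALNT9, GALNT14, GALNTL5 and GALNTL6 were well above background on neither array.

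Among the enzymes that act on the first sugars, B3GNT6, which makes the core 3 structure of mucin-type chains, had net signals of 26 and 35 on the mastitis and 14 and 19 on the normal array, and a ratio of 0.17 (SD 0.01 over 2 probes). The list for core 1 synthesis held that gene together with C1GALT1, the core 1 galactosyltransferase, and C1GALT1C1, its chaperone. None of the 3 differed 2-fold. C1GALT1 had a ratio of -0.51 from 1 probe. C1GALT1C1 had a ratio of 0.00 (SD 0.14 over 3 probes), which was also the median of the list.

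The GCNT enzymes add the branch that makes core 2 chains or the branched I antigen. GCNT1, a core 2 enzyme, had net signals of 47 on the mastitis and 22 on the normal array, a ratio of 0.38. GCNT4 had 18 and 10, a ratio of 0.13. GCNT2, the enzyme of the I antigen, was above background on the mastitis array alone, with 71 there and 5 on the normal array, at least 4.81-fold higher. That value comes from 1 of 4 GCNT2 probes. The other 3 had net signals of 1 to 3 on the mastitis array and 3 to 4 on the normal array and were well above background on neither, so the gene's probes do not give the same picture. GCNT3 was well above background on neither array.

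The B3GNT enzymes extend chains with N-acetylglucosamine. Of 9 genes 7 were measured, with a median ratio of 0.39, 1 gene at least 2-fold higher and none lower. In this family 6 of the 7 lay above the median of all genes, and the family median lay above it in each of the 18 other processings, by 0.20 to 0.83. B3GNT9 had a net signal of 196 on the mastitis and 54 on the normal array (scaled signals of 0.933 and 0.422), a ratio of 1.15 or 2.21-fold higher from its only probe. With normexp the ratio was 0.68 and within 2-fold.

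B3GNT5, which starts the lacto-series of glycolipids, was lowest of the family at -0.17 (SD 0.36 over 3 probes, with net signals of 19 to 28 on the mastitis and 11 to 21 on the normal array). B3GNT2, the main enzyme of poly-N-acetyllactosamine chains, had a ratio of 0.56 (SD 0.38 over 3 probes). Its probe of highest signal had 398 on the mastitis and 124 on the normal array, a ratio of 0.97, and its 2 dim probes gave 0.21 and 0.51. B4GAT1, a member by name only, had 541 and 220, a ratio of 0.58. B3GNT4 and B3GNT7 were well above background on neither array.

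**Figure D2:**
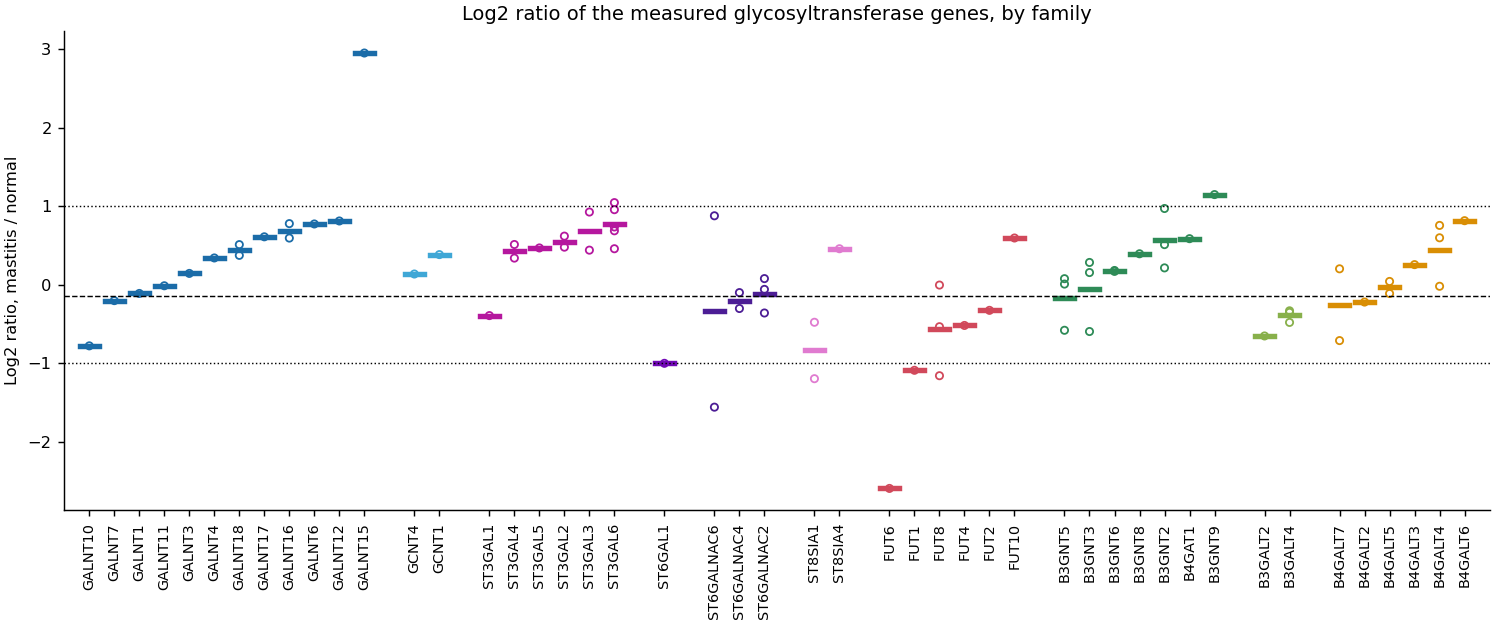
Log2 ratio of mastitis over normal for each of the 47 genes measured on both arrays, grouped and coloured by family and ordered within it. Bars give the gene's mean and open circles its single probes, the dashed line marks the median of all measured genes (-0.15) and the dotted lines a 2-fold difference. GALNT15 (2.95) and FUT6 (-2.60) stand far from the other members of their families, and the probes of ST6GALNAC6 lie on opposite sides of 0.

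Galactose is added by the B3GALT and B4GALT enzymes. All 6 B4GALT genes were measured and none differed 2-fold, with a median ratio of 0.11 and a range from -0.26 to 0.81. B4GALT3 had a net signal of 1189 on the mastitis and 608 on the normal array, a ratio of 0.25. B4GALT6, which makes lactosylceramide, had 49 and 17, a ratio of 0.81. B4GALT5, which makes the same lipid, had 59 and 50 on the mastitis and 35 and 33 on the normal array, a ratio of -0.04 (SD 0.11 over 2 probes). The ratio of B4GALT6 depended on the processing, with -0.01 under normexp (-0.20 for B4GALT5) and a call as at least 2-fold higher in 4 of the 16 other processings that measured it (quantile normalization, scaling on spike-in probes, no scaling and the deposited table).

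B4GALT7, the first galactosyltransferase of the proteoglycan linker, was lowest at -0.26, and its 2 probes disagreed, with ratios of -0.71 and 0.20. B4GALT1, which was left out of the set by its rule, had a ratio of -1.79 (SD 0.10 over 4 probes), below the range of the other 6 B4GALT genes. Of the B3GALT genes 2 of 5 were measured. B3GALT2 had net signals of 25 on the mastitis and 24 on the normal array, a ratio of -0.66. B3GALT4, the synthase of ganglioside GM1, had a ratio of -0.39 (SD 0.08 over 3 probes) and net signals of 186 and 143 at its probe of highest signal. B3GALT6 had 8 on the mastitis array, just above background, and 6 on the normal array, which allows no fold. B3GALT1 and B3GALT5 were well above background on neither array.

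Sialic acid is added by 19 of the genes, of which 12 were measured, with 1 at least 2-fold lower, none higher and a median ratio of 0.15. The linkage classes had different medians. The ST3GAL enzymes, which join sialic acid to galactose in the alpha2,3 linkage found in sialyllactose of cow's milk, were all measured, and their median of 0.51 was the highest among families with at least 3 measured genes. In this family 5 of 6 genes lay above the median of all genes, and the family median lay above it in each of the 18 other processings, by 0.32 to 0.81. Its rank did not hold in every processing. With members named by accession alone the median was 0.61 for GALNT and 0.51 for ST3GAL. With a net signal of at least 50 it was 0.78 for B3GNT and 0.49 for ST3GAL.

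ST3GAL6 was highest at 0.77. Its 5 measured probes had net signals of 29 to 71 on the mastitis and 11 to 28 on the normal array, and their ratios ran from 0.46 to 1.04, so all pointed the same way. ST3GAL4 had 605 and 259 at one probe and 29 and 14 at the other, a ratio of 0.42 (SD 0.12 over probes). ST3GAL2 had 332 and 132 at one probe and 235 and 103 at the other, a ratio of 0.55 (SD 0.10 over probes). In both genes the measured probes lay on the same side of 0. ST3GAL1, which caps core 1 chains, was the 1 member below the median of all genes, with 414 on the mastitis and 332 on the normal array and a ratio of -0.40.

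ST3GAL5 and ST8SIA1 act in turn on the gangliosides of milk, the former making GM3 and the latter GD3. ST3GAL5 had net signals of 179 on the mastitis and 79 on the normal array, a ratio of 0.47. ST8SIA1 had 221 and 188 at one probe and 15 and 21 at the other, and a ratio of -0.84 (SD 0.51 over probes). The enzyme of the earlier step was thus on the higher side and that of the later step on the lower side, with both within 2-fold. ST8SIA4, a polysialyltransferase, had 126 and 56, a ratio of 0.46. ST8SIA2, ST8SIA3, ST8SIA5 and ST8SIA6 were well above background on neither array.

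ST6GAL1, the alpha2,6-sialyltransferase of N-glycans, had net signals of 9 on the mastitis and 11 on the normal array, which was 2.01-fold lower after scaling. Its other probe had 3 on both arrays and was not well above background. The call rests on signals just above background and was lost in 9 of the 15 processings that measured the gene, and with normexp and quantile normalization together the ratio was 0.058. ST6GAL2 was well above background on neither array.

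The ST6GALNAC enzymes, which place sialic acid on N-acetylgalactosamine, had a median ratio of -0.20 over 3 of 5 genes. This median differed from that of all genes by -0.06, and the side was not stable. It lay above the median of all genes in 5 of the 18 other processings, with differences from -0.13 to 0.17. ST6GALNAC4 had net signals of 1219 on the mastitis and 798 on the normal array at its probe of highest signal, and a ratio of -0.20 (SD 0.14 over 2 probes). ST6GALNAC2 had a ratio of -0.12 (SD 0.22 over 3 probes) and ST6GALNAC6 of -0.34. The latter value is a mean of opposites, because 1 probe had 623 on the mastitis and 207 on the normal array (ratio 0.88) and the other had 10 and 18 (ratio -1.56). ST6GALNAC1 and ST6GALNAC5 were well above background on neither array.

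Fucosyltransferases were the family with the lowest median among those with at least 3 measured genes. Of 9 genes 6 were measured, with a median ratio of -0.55 and 1 gene above the median of all genes. At least 2-fold lower were 2 genes and none was higher, beside 9.12% lower and 2.29% higher among all measured genes. The family median lay below that of all genes in each of the 17 other processings that measured at least 3 of the genes, with differences of -0.78 to -0.13.

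FUT6, named FUT5 in the files, had the lowest ratio of all 47 genes. It is the alpha1,3-fucosyltransferase that in cattle corresponds to the cluster of human FUT3, FUT5 and FUT6, whose products make Lewis antigens. Its only probe had a net signal of 45 on the mastitis and 166 on the normal array (scaled signals of 0.214 and 1.30), a ratio of -2.60 or 6.05-fold lower. It was at least 2-fold lower in all 17 other processings that measured it, with ratios from -2.63 to -1.55.

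FUT1 and FUT2 make the H antigen, with fucose in alpha1,2 linkage. FUT1 had net signals of 10 on the mastitis and 13 on the normal array at its only measured probe of 4, a ratio of -1.09 or 2.13-fold lower. That signal was close to background, and the call was lost in 8 of the 14 other processings that measured the gene. FUT2 had 286 and 219, a ratio of -0.33. FUT4, another alpha1,3-fucosyltransferase, had 16 and 14, a ratio of -0.52. FUT8, which adds the core fucose of N-glycans, had ratios of -1.16, -0.54 and -0.01 at its 3 measured probes, a mean of -0.57, and the probe of highest signal (80 on the mastitis, 49 on the normal array) was the one close to 0. FUT7, which makes selectin ligands in leukocytes, was above background on the normal array alone, with 9 there and 3 on the mastitis array, at least 1.85-fold lower. FUT10 was the 1 measured member above the median of all genes, with 47 and 19 and a ratio of 0.59. FUT9 and FUT11 were well above background on neither array.

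Genes that make and carry the activated sugars were described beside the enzymes that use them. Of 19 genes for nucleotide sugar synthesis all were measured, with 1 at least 2-fold higher, 4 lower and a median ratio of -0.52, beside 2.29% higher and 9.12% lower among all measured genes. Of 10 Golgi transporters 8 were measured, with 2 lower, none higher and a median of -0.59. The medians of both lists lay below that of all genes in each of the 18 other processings, while those of the GALNT, ST3GAL and B3GNT families lay above it.

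The pair of enzymes that turn GDP-mannose into GDP-fucose, the donor of all fucosyltransferases, were both among the 4 lower genes. GFUS had net signals of 101 on the mastitis and 242 on the normal array, a ratio of -1.97. GMDS had 1427 and 4416 at its probe of highest signal and a ratio of -1.58, with a wide SD of 1.08 over 2 probes. The salvage enzymes FCSK and FPGT, which make GDP-fucose from free fucose, had ratios of -0.29 and 0.13, and the Golgi carrier of GDP-fucose, SLC35C1, had -0.80 (SD 0.80 over 2 probes), all within 2-fold.

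UGP2, which makes UDP-glucose, was also lower, with net signals of 2162 on the mastitis and 3390 on the normal array at its probe of highest signal and a ratio of -1.38 (SD 0.04 over 4 probes). GFPT2, an enzyme that commits fructose 6-phosphate to the synthesis of UDP-N-acetylglucosamine, was the 1 higher gene. Its ratio of 1.77 came from 1 measured probe, with 263 on the mastitis and 47 on the normal array. With no filter on dim probes the GFPT2 ratio was 1.01. The 2 lower transporters were SLC35C2, with 78 and 116 and a ratio of -1.29, and SLC35D2, with 150 and 194 at its probe of highest signal and a ratio of -1.40 (SD 0.44 over 2 probes). Both transporters were within 2-fold with no scaling, with normexp and with normexp and quantile normalization together. UGP2 was within 2-fold with no scaling and with the latter pair, and GMDS with no scaling. No gene for the donor of sialic acid was called. GNE and NANS, which make sialic acid, had ratios of -0.79 (SD 0.30 over 2 probes) and -0.89. Later in the path CMAS, which activates it, was at 0.03 (SD 0.07 over 3 probes) and its carrier SLC35A1 at 0.08 (SD 0.08 over 2 probes).

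Genes for proteins that carry mucin-type chains were described next. Of 13 mucins and mucin-like genes 7 were measured, with 4 lower, none higher and a median ratio of -3.33. The median was -2.13 with normexp, -1.97 over the 6 genes whose net signals reached 50 on both arrays and -1.30 over 11 genes with no filter on dim probes. GLYCAM1, a mucin-like protein secreted into milk, had net signals of 32 on the mastitis and 48282 on the normal array, a ratio of -11.27. MUC1 and MUC15, mucins of the milk fat globule membrane, had 513 and 79 on the mastitis and 6798 and 1725 on the normal array at their probes of highest signal, with ratios of -3.40 (SD 1.03 over 5 probes) and -3.91 (SD 1.77 over 2 probes). MUC20 had 72 and 440, a ratio of -3.33. The 3 others, the leukocyte and endothelial proteins SELPLG and CD34 and the widely expressed CD164, had ratios of 0.66, 0.83 and -0.62. Of the 6 that were not measured on both arrays, MUC13 and SPN were above background on the mastitis array alone, MUC16 on the normal array alone, and MUC4, MUC5B and PODXL on neither. The 4 calls of the list were thus milk and epithelial mucins.

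The 11 genes for N-glycan processing and branching had 8 measured members, none of which differed 2-fold, and a median ratio of -0.24. The 10 genes for sialidases, fucosidases and other glycosidases that trim these chains also had 8 measured members, with a median of -0.29. The 1 call among them was the sialidase NEU4, at -1.15 from dim signals of 14 on the mastitis and 19 on the normal array, and it was lost in 6 of the 16 other processings that measured the gene, with ratios up to -0.18.

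**Figure D3:**
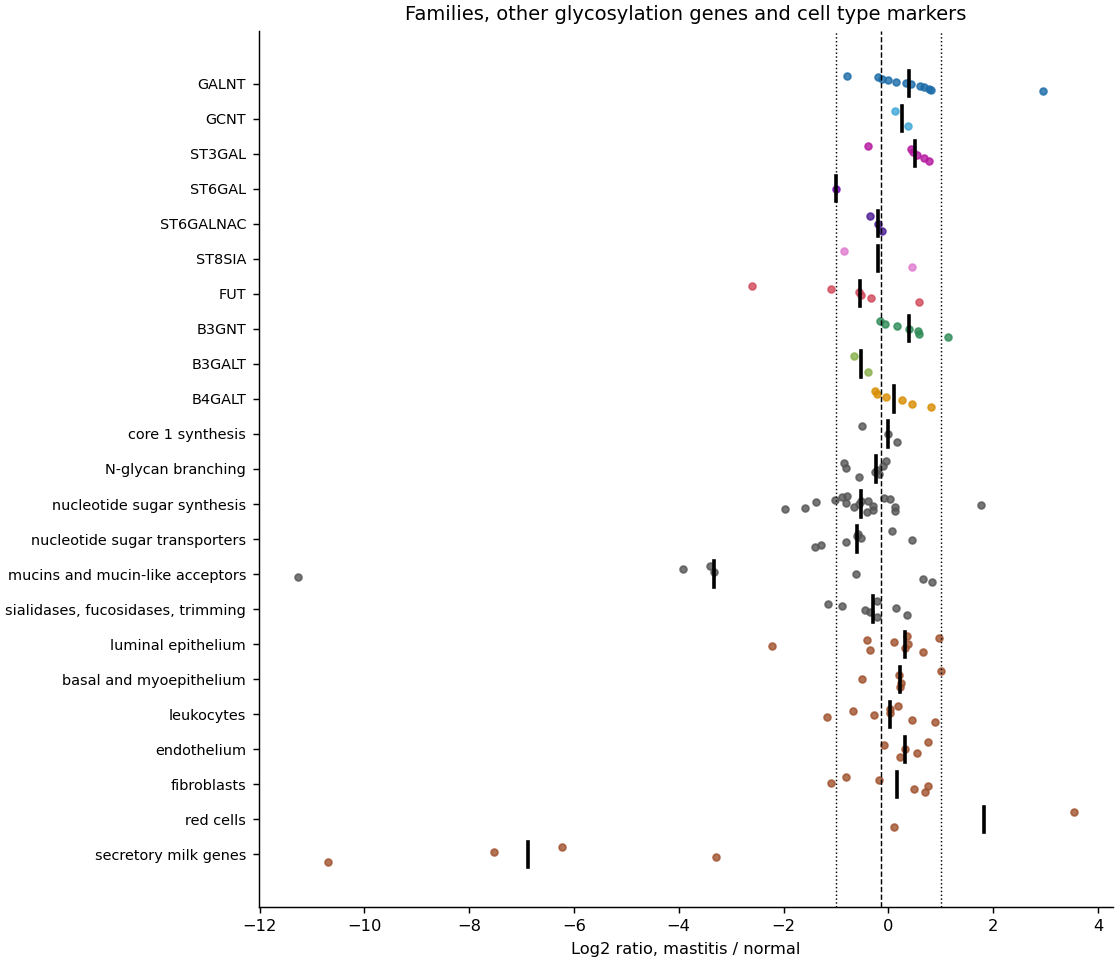
Log2 ratio of mastitis over normal for each measured gene (points) of the 10 glycosyltransferase families, 6 lists of other glycosylation genes and 7 lists of cell type markers, with a black bar at the median of each. The dashed line marks the median of all measured genes (-0.15) and the dotted lines a 2-fold difference. The families lie near the dashed line, while mucins (median -3.33) and secretory milk genes (median -6.88) lie far below it.

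The tissue label was checked with markers of the cells a mammary gland holds. Over 9 luminal epithelial markers, all measured, the median ratio was 0.32 and 1 gene was lower, ELF5, a regulator of milk-producing cells, at -2.22. The summed scaled signal of this list was 204 on the mastitis and 279 on the normal array. Basal and myoepithelial markers (5 of 6 measured) had a median of 0.23 and sums of 75.4 and 74.6, leukocyte markers (8 of 9) 0.03 and 85.0 and 96.1, endothelial markers (5 of 5) 0.31 and 18.3 and 13.2, fibroblast markers (6 of 6) 0.16 and 276 and 218, and red cell markers (2 of 3) had sums of 54.5 and 46.2 with HBB at 3.54 and HBA at 0.11. The 5 secretory milk genes had sums of 170 and 7801 and a median of -6.88 over 4 genes, and on the mastitis array LALBA was not well above background. TP63 was well above background on neither array, and neither ITGAM nor ALAS2 on the normal array. Luminal epithelial RNA was thus present on both arrays while milk gene signals were much lower on the mastitis array. The part that these cell and secretory differences have in the glycosyltransferase ratios was not tested.

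The scaling of the arrays moved the counts of 2-fold calls. Among all measured genes 20.1% of the called genes were higher on the mastitis array, against 34.2% with scaling on the median, 37.2% with quantile normalization, 37.1% in the authors' deposited table, 43.9% with scaling on spike-in probes and 88.4% with no scaling. With no scaling 21 glycosyltransferases were at least 2-fold higher and 1 lower, and with quantile normalization 7 were higher and 1 lower. Among all 12472 measured genes, 2524 were higher and 331 lower with no scaling, and 450 higher and 761 lower with quantile normalization. FUT6 was called lower in each of the 17 other processings that measured it, and GALNT15 was called higher in each of the 16 that measured it. Both left the set where a net signal of at least 50 was asked of both arrays, and GALNT15 left it also where at least 20 was asked.

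**Figure D4:**
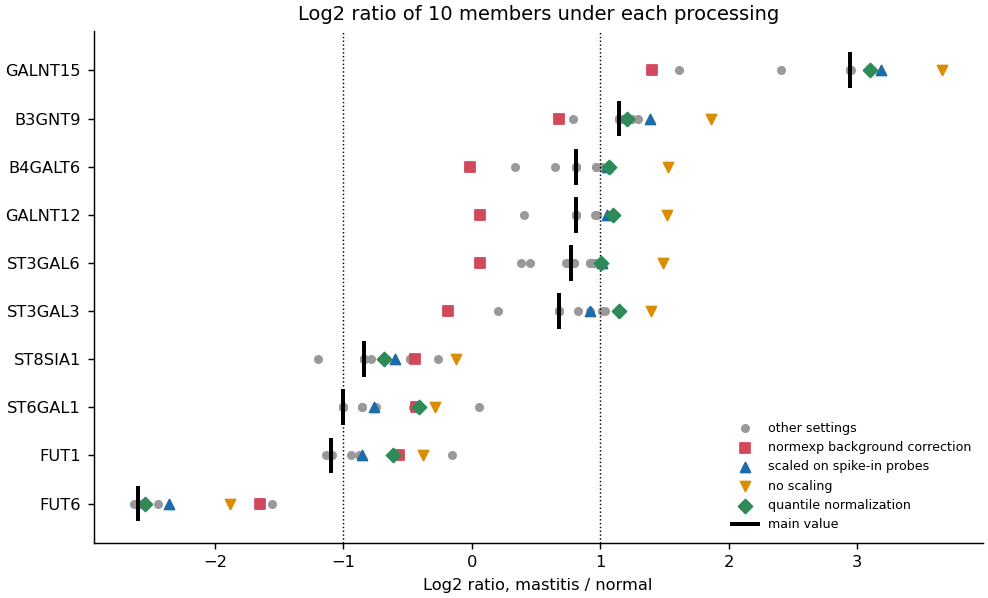
Log2 ratio of mastitis over normal of 10 glycosyltransferases (rows) under the processing used here (black bar) and the other processings (symbols), with dotted lines at a 2-fold difference. FUT6 stays below -1 and GALNT15 above 1 throughout, while FUT1 and ST6GAL1 cross -1 and ST6GAL1 reaches 0.058.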

How the data were processed

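Signals of 1 mastitis and 1 normal array were analysed. The authors deposited GenePix Pro 6.1 scans of an Agilent bovine array read at 532 nm (Cy3), as intensity with 1 background value per array, set from the negative controls, subtracted and no scaling. The deposited scans also give the percent of saturated pixels and a flag for each spot. Sources differ on the method: Agilent Feature Extraction is given in the submitters' processing notes and an Affymetrix chip in the study's methods, while the headers and layout are those of an Agilent array in GenePix. RNA came from a miRNeasy kit by the labels and from Trizol by the methods. A table of log2 values, also deposited, has column medians of 4.34 for mastitis and 4.29 for normal, and how it was made is not given in the sources used here. Its values were on the log2 scale and ran with the signal of the probe that follows in sorted order (Spearman correlation of 1.00, against 0.10 for the same row), so it was used as an alternative with its rows moved by 1.

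Control spots were left out. A probe was measured when its net signal lay over 2.6 SD above the mean of 153 negative control spots and the spot had been found. A fold for a gene measured on 1 array is a lower bound. No test was possible with 1 array per group, no depth exists for arrays, and their number limits the precision. Gene names came from a RefSeq table (ARS-UCD2.0, names only): 28562 of 43653 by accession, 5056 by symbol, 148 by synonym, 1435 by the file's name and 8452 unnamed. Named genes were members at least 2-fold apart or measured on 1 array, the highest, the lowest and the brightest-probe member of each family, members whose probes disagreed with one 2-fold apart, and 2-fold members of the other lists. GALNT1, GALNT6, GALNT11, GALNT12, B3GNT2, B3GNT6, B4GALT5, ST3GAL2, ST3GAL5, ST6GALNAC2, FUT4, FUT8, C1GALT1, C1GALT1C1, GNE, NANS, CMAS, SLC35A1, SLC35C1, FCSK, FPGT, SELPLG, CD34, CD164, the unmeasured mucins, the markers ELF5, HBB and HBA and the members not above background were named after their values were seen. Members and lists were chosen with earlier results of these data known.

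The calculation was tested on simulated data. Python 3.11.15 (numpy 2.4.6, pandas 2.3.3, scipy 1.17.1, matplotlib 3.10.9) and limma 3.58.1 in R 4.3.3 were used. Alternatives covered the background correction (normexp, offset 50), the scaling, the filter on dim probes, flagged spots, the value of a gene, the naming of members, the fold threshold (1.5 and 3) and the deposited table. Promoter and protein sequences were not used here. The value of 1 single gene of the other lists is not reported here.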

Additional observations from a re-analysis of the deposited data

How the results depend on the processing

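No paired analysis was possible because each group has 1 array. The calculation was repeated in 18 ways and at 2 other fold thresholds, and 4 of the 18 were chosen after seeing the data (the negative control mean subtracted, normexp with quantile normalization, 2 probes added through other accessions, and a net signal of at least 20). The median of all genes was -0.15 and lay between -0.36 (no filter on dim probes) and 0.57 (no scaling). The count of glycosyltransferases at least 2-fold higher, 2 in the report, was 10 at 1.5-fold, 21 with no scaling, 7 with quantile normalization, 6 with scaling on spike-in probes and 5 in the deposited table. It was 1 at 3-fold, with normexp alone or with quantile normalization, and with a net signal of at least 50 or 20. Among all 12472 measured genes, 7.79% were higher at 1.5-fold and 0.545% at 3-fold. At 2-fold, 286 were higher in the report and 2524 with no scaling. The number was 450 with quantile normalization, 572 with scaling on spike-in probes and 468 in the deposited table. It was 97 with normexp and 116 with normexp and quantile normalization. With a net signal of at least 50 it was 208 of 8633 genes, and with at least 20 it was 264 of 10755. The count of lower glycosyltransferases, 3 in the report, was 6 at 1.5-fold, 15 with no filter on dim probes and 0 with a net signal of at least 50. It was 1 at 3-fold, at 4 SD above the negative controls, in the deposited table, with no scaling, with scaling on the median or on spike-in probes, with quantile normalization, with normexp alone or with quantile normalization, with the negative control mean subtracted and with a net signal of at least 20. In the count of 1 at 2-fold the gene was FUT6 each time. With members named by accession alone, FUT1 left the set and ST8SIA1, at -1.20 from its other probe, joined the 3 lower genes. The median ratio of the members, 0.14 in the report, was 0.86 with no scaling, -0.09 with normexp and -0.21 with no filter on dim probes. The mucin list lay below all genes by a median difference of -3.18, and by -1.93 with a net signal of at least 50, -0.94 with no filter, -1.94 with normexp and -1.93 with normexp and quantile normalization. The ratio of ST6GAL1 changed sign, to 0.058, with normexp and quantile normalization together. The causes of these shifts were not tested, apart from scaling by another single factor, which moves all ratios by the same amount. For signals of about 10, a difference of a few units moves a gene across 2-fold, and values within 1 array give no spread between cows.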
